A study of Mus musculus with 6 samples.

Results

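The 37 genes described here encode the proteins that build and run DNA replication forks in mouse cells, from origin licensing to chromatin assembly behind the fork. They were chosen by name from the 24885 rows of a raw count table, matched through their NCBI gene numbers, and all 37 were found. The 6 libraries profiled the 3' ends of transcripts in Eµ-Myc B-cell lymphoma cells, a tumour line driven by a Myc transgene active in B lineage cells. The parent cells were Cre-ERT2+ and carried the miR-17~92 microRNA cluster as fl/fl alleles. They had been grown for 48 hours on irradiated Ink4a-null fibroblast feeders. The fl group (3 libraries) kept the floxed alleles, and the del group (3 libraries, genotype del17-92) had lost the cluster through 250 nM 4-OHT, given for 4 days before subcloning. Treatment and subcloning go with the deletion and cannot be told apart from it. Separate cultures or clones within a group are not stated. The p-values therefore reflect only how far these libraries differ among themselves, which may be technical.

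In a dividing cell, the origin recognition complex with CDC6 and CDT1 loads the MCM ring onto DNA, and geminin stops this loading once S phase has begun. CDC45 and the GINS complex turn the ring into the active helicase. Polymerases, the PCNA clamp with its RFC loader and the RPA complex then copy the strands, ligase joins the fragments, and CAF-1 deposits histones. Cyclin E with CDK2 drives entry into S phase, and most of these genes are known targets of the E2F factors. The comparison of del with fl describes how their transcripts differ between these groups.

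Total counts were 6554423 to 9580630 in fl and 2121796 to 3738720 in del, a mean depth 2.65 times as high in fl, and depth goes with group. Mir17hg, the transcript that carries the cluster, stood at 252, 263 and 262 CPM (counts scaled to a common library size with TMM factors) in fl and 167, 152 and 206 CPM in del (-0.56 ± 0.15 on the log2 scale). Whether its counted 3' end lies outside the deleted part is not stated, so it does not check the deletion. The cell type markers differed between the groups. The 15 B cell markers summed to 59.0 to 69.4 CPM in fl and 1401 to 1598 CPM in del, with Rag1 at 0 in all fl libraries and Ebf1 and Cd79b, defining genes of the B lineage, at mean levels of 0.263 and 2.12 CPM in fl and 113 and 171 CPM in del. The 13 myeloid markers in the table summed to 432 to 477 CPM and 3041 to 3856 CPM, with Mpo and S100a9 at 0 in every library. Of the 9 tested, 7 rose and 2 fell. Cybb alone went from 1.97 ± 0.814 to 1470.3 ± 398 CPM, beside a mean sum of 3455 CPM in del. The 10 T and NK cell markers summed to 38.6 to 42.8 CPM and 99.5 to 121 CPM, with Cd3e, Cd8a and Ncr1 at 0. Cd2 made up most of the del sum (13.1 ± 3.07 to 105 ± 10.1 CPM), while the other tested genes of that list fell, Cd5 from 23.3 ± 1.89 to 3.30 ± 1.49 CPM and Lck from 3.24 ± 1.01 CPM to 0 in all del libraries. Without Vim, a gene that lymphoid cells also express, 15 fibroblast markers of the feeders summed to 2.52 to 9.68 CPM in fl and 18.2 to 36.9 CPM in del. These marker differences go with the group, so lineage state cannot be told apart from the deletion. Their part in the results below was not tested. In bulk samples, fewer cells of a type and less RNA per cell cannot be told apart.

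The replication genes moved in both directions, as tested genes did across the table. Of the 37 members, all of which had counts in every library (19 to 4017 per library) and passed the filter on low counts, 10 rose in del, 12 fell and 15 did not pass the threshold (edgeR's quasi-likelihood test, Benjamini-Hochberg adjusted p under 0.05 over all genes tested). Of all 10260 genes tested 65.1% passed it, 32.5% higher and 32.6% lower in del, and 59.5% of the members did. The median log2 fold change, del minus fl here and below, was -0.12 over the members and 0.00 over all genes tested. The members ran from -1.46 (Ccne1) to 1.47 (Ccne2). The fl and del libraries did not overlap for 22 members, against 69.9% of all genes. Differences of at least 2-fold that passed the threshold were found for 6 members, against 37.3% of all genes: Ccne2, Lig1, Pola1 and Mcm3 rose, and Ccne1 and Rpa3 fell. With upper-quartile factors, which moved the median of all genes by -0.13, 8 members rose and 15 fell. With libraries thinned at random to the lowest total count, 10 rose and 7 fell. In every role with more than 1 called member except licensing, single-strand binding and the polymerases, genes moved in both directions. Together the members held 3536 to 3749 CPM in fl and 3964 to 4012 CPM in del.

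**Figure D1:**
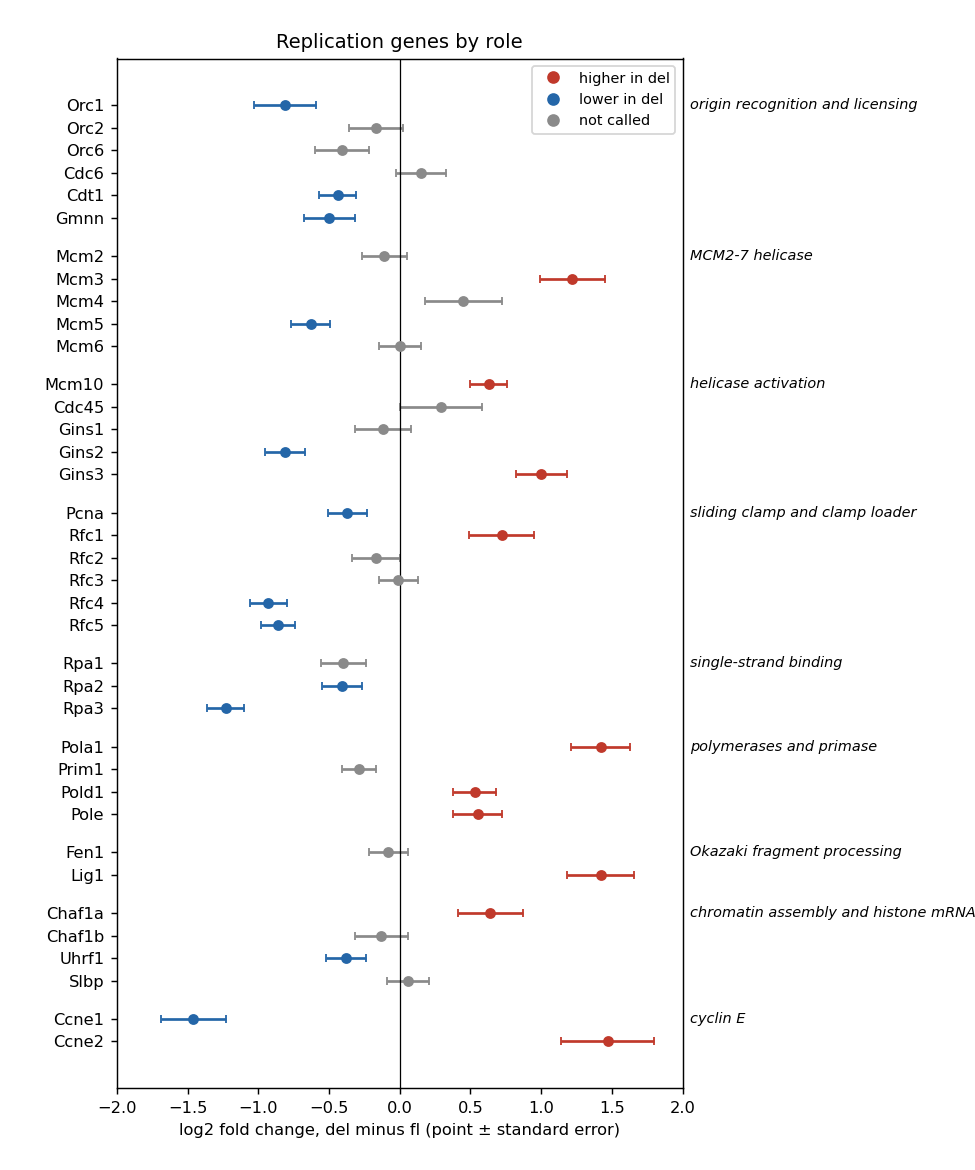
The log2 fold change (del minus fl, x axis) of each of the 37 members is shown with its standard error, grouped by role. Red points passed the threshold as higher in del (10), blue as lower (12), and grey did not pass (15). The outermost points are Ccne1 at -1.46 and Ccne2 at 1.47.

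Among the genes of origin recognition and licensing, 3 of 6 fell and none rose, with a median of -0.43. That is 50.0% called, against 65.1% of all genes tested, of which 32.6% were lower and 32.5% higher. Orc1 (gene number 18392), which encodes the largest subunit of the origin recognition complex, was at 12.7, 14.2 and 16.9 CPM in fl replicates 1 to 3. In del replicates 1 to 3 it was at 6.06, 9.0 and 10.0 CPM. All del libraries lay below all fl libraries, for a log2 fold change of -0.81 ± 0.22 (standard error, here and below; adjusted p = 0.00951), which missed the threshold in thinned libraries (0.0678). Cdt1, the loading factor, went from 56.6 ± 3.53 to 41.8 ± 0.829 CPM (mean ± SD, n = 3 libraries per group, here and below; -0.44 ± 0.13, adjusted p = 0.0125). Gmnn, which encodes geminin, the inhibitor of CDT1, fell as well, from 183 ± 31.5 to 129 ± 21.4 CPM (-0.50 ± 0.18, adjusted p = 0.0302). Gmnn missed the threshold without fl replicate 1 (adjusted p = 0.0916), without del replicate 2 (0.0951) or without del replicate 3 (0.078), and in thinned libraries (0.0911). Orc2 stood at -0.17 ± 0.19 and Cdc6, the loader's ATPase, at 0.15 ± 0.18. Orc6 stood at -0.41 ± 0.19 (adjusted p = 0.0771), with del replicate 3 at 167 CPM beside 108 CPM in each of the other del libraries, and passed without that library (adjusted p = 0.00342), with upper-quartile factors (0.022) and with no count filter (0.0417). Of the origin recognition subunits outside the members, Orc3 (-0.47 ± 0.15) and Orc5 (-0.75 ± 0.15) fell and Orc4 did not pass (-0.44 ± 0.18, adjusted p = 0.0569). Orc3 missed the threshold without fl replicate 2 (adjusted p = 0.066) or del replicate 2 (0.0508).

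The subunits of the MCM ring sit side by side in a single hexamer. Of the 5 among the members, 1 rose, 1 fell and 3 did not pass (40.0% called, against 65.1% of all genes tested). Mcm3 (gene number 17215, chr1:20802966-20820312) was at 195, 189 and 192 CPM in fl and at 309, 416 and 616 CPM in del. Every del library was above every fl library, and the spread was wide in del and narrow in fl, for a log2 fold change of 1.22 ± 0.23 (2.33-fold, adjusted p = 0.0013). Without del replicate 3, the highest library, the value was 0.91. Mcm5 (gene number 17218, chr8:75109468-75128439) was at 85.9, 104 and 102 CPM in fl and at 59.3, 65.8 and 62.7 CPM in del, without overlap (-0.63 ± 0.14, adjusted p = 0.00266). The remaining subunits did not pass. Mcm2 stood at -0.11 ± 0.16, Mcm6 at 0.00 ± 0.15 and Mcm4 at 0.45 ± 0.27. For Mcm4, del replicate 1 was at 176 CPM and the other del libraries at 85.7 and 84.9 CPM, within the fl range of 77.3 to 90.8 CPM. The sixth subunit of the ring, Mcm7, which is not among the members, was at 117, 139 and 157 CPM in fl and 159, 141 and 185 CPM in del (0.23 ± 0.16, adjusted p = 0.234).

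The promoters of Mcm3 and Mcm5, the called subunits of the ring, are shown and were picked with their opposite changes in view. Both run from 250 bases before to 50 bases after the RefSeq start (GRCm38.p6), 5′ to 3′ on the gene's strand, and capitals mark matches to E2F sites and to the CCAAT box, on either strand.
Mcm3, chr1:20820263-20820562 (- strand): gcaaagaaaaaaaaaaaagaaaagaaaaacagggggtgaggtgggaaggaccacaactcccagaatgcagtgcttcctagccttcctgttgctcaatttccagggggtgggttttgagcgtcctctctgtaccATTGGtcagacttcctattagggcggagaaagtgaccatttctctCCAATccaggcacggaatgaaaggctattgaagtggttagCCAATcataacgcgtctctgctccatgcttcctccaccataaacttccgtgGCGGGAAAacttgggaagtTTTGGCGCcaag
Mcm5, chr8:75109259-75109558 (+ strand): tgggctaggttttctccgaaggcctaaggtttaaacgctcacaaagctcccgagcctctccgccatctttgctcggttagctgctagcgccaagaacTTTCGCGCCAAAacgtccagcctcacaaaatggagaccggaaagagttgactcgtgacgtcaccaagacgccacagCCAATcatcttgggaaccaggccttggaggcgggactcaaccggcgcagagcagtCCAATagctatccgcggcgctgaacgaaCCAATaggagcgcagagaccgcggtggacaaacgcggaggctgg
Mcm3 holds 2 E2F matches, 19 and 38 bases past the start, and 3 CCAAT matches. Mcm5 holds 2 E2F matches that overlap each other, 153 and 149 bases before the start, and 3 CCAAT matches. The E2F letters searched were TTTCCCGC, TTTGGCGC, TTTCGCGC and TTTGCCGC. Of 30 members with a promoter entry, 10 (33.3%) held an E2F match, against 4.54% of the promoters of 8313 tested genes, and 21 (70.0%) held CCAAT, against 39.6%. The E-box CACGTG, the site of MYC and its partner MAX, was found in 4 members (13.3%), against 11%. The E2F matches were spread over both directions of change: Gins3, Mcm3, Pola1 and Pold1 rose, Cdt1, Mcm5 and Orc1 fell, and Cdc6, Mcm6 and Rfc3 did not pass. Among members with an entry, the E-box was in 3 of 8 that rose, 0 of 10 that fell and 1 of 12 not called. CCAAT was in 6, 6 and 9 of them. Whether matches go with direction was not tested. A match is a description of the letters, not of a bound site. Gmnn, Mcm4, Gins1, Gins2, Rfc2, Pole and Ccne2 have no entry.

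Genes of helicase activation also went in both directions, within the 4-part GINS complex too (60.0% of this role called, against 65.1% of all genes tested). Gins2 (gene number 272551) was at 53.1, 52.4 and 52.6 CPM in fl and at 28.7, 26.5 and 34.1 CPM in del. The fl libraries lay close together and above all del libraries (-0.81 ± 0.14, adjusted p = 0.000728). Gins3 went the other way, from 34.4 ± 4.53 to 69.2 ± 13.2 CPM (1.00 ± 0.18, adjusted p = 0.000825), again without overlap and just under 2-fold. Gins1 stood at -0.12 ± 0.20, with del replicate 3 at 44.3 CPM above the other del libraries at 28.4 and 25.1 CPM, and passed as lower without it (adjusted p = 0.0477). Gins4, which is not among the members, fell from 58.2 ± 2.68 to 29.6 ± 2.63 CPM (-0.97 ± 0.13, adjusted p = 0.000207). Mcm10, which encodes a factor that helps the loaded helicase to start, rose from 33.7 ± 2.86 to 52.4 ± 1.40 CPM (0.63 ± 0.13, adjusted p = 0.0021). Cdc45 did not pass (0.29 ± 0.29, adjusted p = 0.393), and here too del replicate 1 stood above the others, at 91.6 CPM beside 47.4 and 38.4 CPM.

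**Figure D2:**
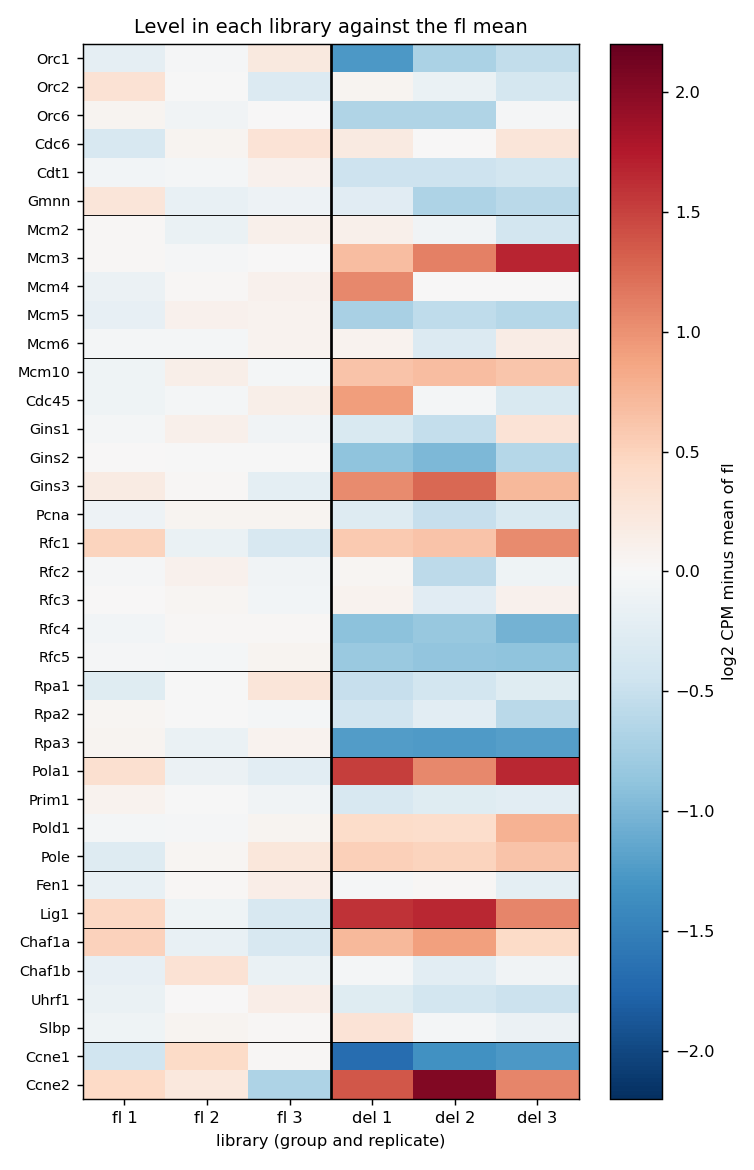
Each row is a member in the order of the roles and each column a library, coloured by log2 CPM minus the mean log2 CPM of the 3 fl libraries (red higher, blue lower). Rpa3, Rfc4 and Rfc5 are blue and Pola1 and Lig1 red in all 3 del libraries, while Mcm4 and Cdc45 are red in del replicate 1 alone.

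Of the 6 genes of the clamp and its loader, 3 fell, 1 rose and 2 did not pass (66.7% called, against 65.1% of all genes tested). Pcna, the sliding clamp that holds polymerases on DNA, went from 433 ± 29.6 to 335 ± 26.1 CPM (-0.37 ± 0.14, adjusted p = 0.0393). Pcna missed the threshold without fl replicate 2 (adjusted p = 0.126), fl replicate 3 (0.104), del replicate 2 (0.111) or del replicate 3 (0.0585), and in thinned libraries (0.0575). Of the loader subunits, Rfc4 (gene number 106344) was at 69.1, 73.5 and 73.2 CPM in fl and at 38.5, 40.3 and 35.1 CPM in del. The groups were far apart relative to their spread (-0.93 ± 0.13, adjusted p = 0.0002). Rfc5 fell by a like amount (-0.86 ± 0.12, adjusted p = 0.000259), from 72.1 ± 3.07 to 39.8 ± 0.904 CPM. Rfc2 (-0.17 ± 0.17) and Rfc3 (-0.01 ± 0.14) did not pass. Rfc1, the large subunit, was the member of this role that rose, from 127 ± 40.3 to 208 ± 38.1 CPM (0.72 ± 0.23, adjusted p = 0.0214). In fl replicate 1 it was at 172 CPM, above the other fl libraries at 111 and 96.0 CPM and close to the lowest del library at 182 CPM. It missed the threshold without fl replicate 2 (adjusted p = 0.0728), fl replicate 3 (0.0678) or del replicate 3 (0.0778).

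All 3 genes of RPA, the complex that covers single-stranded DNA at the fork, had negative fold changes. Of them 2 fell (66.7% called, against 65.1% of all genes tested). Rpa3 (gene number 68240, chr6:8255936-8259141), the smallest subunit, was at 271, 235 and 274 CPM in fl and at 111, 109 and 112 CPM in del. The del libraries were nearly equal and all below the fl libraries (-1.23 ± 0.13, 2.35-fold lower, adjusted p = 4.64e-05). Rpa2 went from 95.2 ± 3.01 to 71.9 ± 9.27 CPM (-0.41 ± 0.14, adjusted p = 0.026), a call lost when any library other than del replicate 2 was left out (adjusted p from 0.05 to 0.0759) and in thinned libraries (0.0523). Rpa1, the largest subunit, did not pass (-0.40 ± 0.16, adjusted p = 0.0558) but did without fl replicate 1 (0.0192), with upper-quartile factors (0.0197) and with no count filter (0.0338).

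The catalytic subunits of all 3 replicative polymerases rose (75.0% of this role called, against 65.1% of all genes tested). Pola1 (gene number 18968, chrX:93304766-93632387), the catalytic subunit of polymerase alpha, was at 38.0, 27.2 and 25.1 CPM in fl and at 85.3, 61.6 and 93.0 CPM in del. The lowest del library was well above the highest fl library (1.42 ± 0.21, 2.67-fold, adjusted p = 0.000284). Pold1 (0.53 ± 0.15, adjusted p = 0.0109) and Pole (0.55 ± 0.17, adjusted p = 0.0163), the catalytic subunits of polymerases delta and epsilon, rose by less. Pole missed the threshold without fl replicate 1 (adjusted p = 0.054) and with upper-quartile factors (0.0627). Prim1, the catalytic subunit of the primase that works with polymerase alpha, went from 82.0 ± 4.24 to 67.3 ± 2.72 CPM and did not pass (-0.29 ± 0.12, adjusted p = 0.0683). It did with upper-quartile factors (0.017), and its groups did not overlap. Pola2, the regulatory subunit of polymerase alpha and no member, fell from 81.0 ± 3.37 to 40.0 ± 4.87 CPM (-1.02 ± 0.14, adjusted p = 0.00019).

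In Okazaki fragment processing, Lig1 (gene number 16881, chr7:13277175-13311426), the ligase that seals the fragments, was at 207, 140 and 117 CPM in fl and at 454, 476 and 318 CPM in del. No del library overlapped the fl range (1.42 ± 0.24, 2.68-fold, adjusted p = 0.000689). Fen1, the flap nuclease that trims the same fragments, stood at 64.6 ± 6.87 and 61.4 ± 5.38 CPM (-0.08 ± 0.14, adjusted p = 0.657). Zswim9, which shares exon bases with Lig1 on the other strand, was at 2.58 ± 0.753 and 7.14 ± 1.29 CPM.

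Behind the fork, the large and middle subunits of the CAF-1 histone chaperone were not called alike. Chaf1a was at 116, 73.5 and 64.5 CPM in fl and at 134, 154 and 110 CPM in del. The highest fl library lay above the lowest del library (0.64 ± 0.23, adjusted p = 0.034), and Chaf1a no longer passed without fl replicate 2 (adjusted p = 0.102), fl replicate 3 (0.0997), del replicate 1 (0.0832) or del replicate 2 (0.113), or with upper-quartile factors (0.0537). Chaf1b stood at -0.13 ± 0.19 (adjusted p = 0.574). Uhrf1, which brings the maintenance DNA methyltransferase to new DNA, was at 86.6, 96.8 and 106 CPM in fl and 80.3, 73.0 and 69.2 CPM in del (-0.38 ± 0.14, adjusted p = 0.037). Without fl replicate 2 (adjusted p = 0.0911), fl replicate 3 (0.127), del replicate 2 (0.0786) or del replicate 3 (0.0945), and in thinned libraries (0.0988), it was not called. Slbp, which binds histone mRNA, stood at 0.06 ± 0.15.

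The E-type cyclins went in opposite directions. With all libraries and TMM factors they had the highest and the lowest fold change of the members, but Ccne2 was at 1.15 without del replicate 2, below Pola1 (1.56) and Lig1 (1.32), and at 1.20 without fl replicate 3, below Pola1 (1.31) and Lig1 (1.26). In thinned libraries Pola1 was at 1.49 and Ccne2 at 1.47. Ccne1 was at -1.23 without fl replicate 2, beside -1.30 for Rpa3. After subtraction of the length and GC trend, Lig1 (1.56) and Rpa3 (-1.39) lay further out than Ccne2 (1.08) and Ccne1 (-1.09). Ccne1 (gene number 12447, chr7:38097984-38107490) was at 43.0, 78.2 and 59.8 CPM in fl and at 18.4, 23.2 and 24.3 CPM in del. All del libraries lay below the fl libraries (-1.46 ± 0.23, 2.75-fold lower, adjusted p = 0.000492). Ccne2 (gene number 12448, chr4:11190433-11204779) was at 144, 125 and 65.8 CPM in fl and at 272, 435 and 224 CPM in del. All del libraries lay above the fl libraries, with a wide spread in each group (1.47 ± 0.33, 2.77-fold, adjusted p = 0.00356). Ints8, which shares exon bases with Ccne2 on the other strand, went from 50.0 ± 3.79 to 38.6 ± 2.31 CPM. Calls for both cyclins held under each alternative fit run. The promoter of Ccne1 is shown as that of the member with the lowest fold change when all libraries are used.
Ccne1, chr7:38107441-38107740 (- strand): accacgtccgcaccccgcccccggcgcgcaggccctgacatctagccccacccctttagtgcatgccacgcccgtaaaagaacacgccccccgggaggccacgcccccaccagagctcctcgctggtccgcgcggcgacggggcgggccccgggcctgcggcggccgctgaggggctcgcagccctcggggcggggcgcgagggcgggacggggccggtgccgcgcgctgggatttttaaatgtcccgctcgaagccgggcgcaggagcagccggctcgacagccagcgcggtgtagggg
No letters are in capitals because neither the E2F letters, CCAAT nor CACGTG were found in this window.

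**Figure D3:**
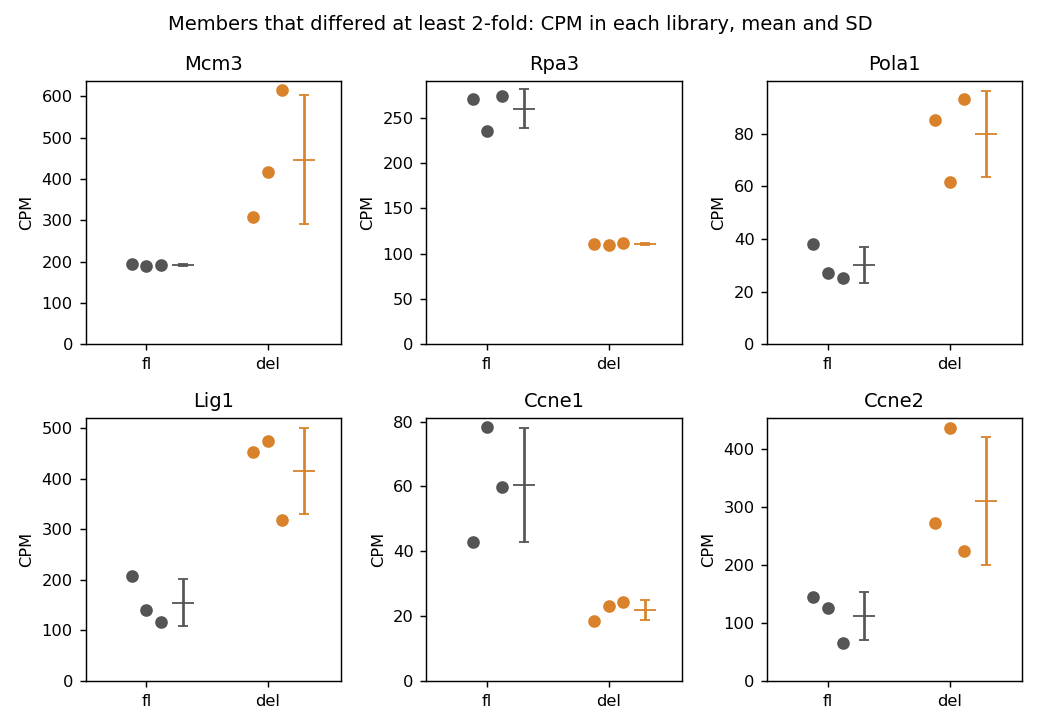
Each panel shows a member that differed at least 2-fold and passed the threshold, with CPM on the y axis, a point for each library and the mean ± SD beside it (grey fl, orange del, 3 libraries each). The fl and del points do not overlap in any of the 6 panels, and Rpa3 in del lies at 109 to 112 CPM.

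Ratios of 2 genes counted in the same library do not depend on how libraries are scaled, and 7 pairs of partners were compared this way. Values are log2 count ratios minus their fl mean. The ratio of Mcm3 to Mcm5 was at 0.19, -0.12 and -0.07 in fl and at 1.39, 1.67 and 2.31 in del, a mean shift of 1.79 (3.46-fold). That of Gins3 to Gins2 shifted by 1.83 ± 0.46 (SD, n = 3) and that of Rfc1 to Rfc4 by 1.67 ± 0.35. Pola1 to Prim1 shifted by 1.70 ± 0.32 and Lig1 to Fen1 by 1.52 ± 0.19. The ratio of Ccne2 to Ccne1 was at 0.89, -0.18 and -0.71 in fl and at 3.03, 3.37 and 2.35 in del, a mean shift of 2.92 (7.56-fold). For these 6 pairs no del library overlapped the fl libraries. Chaf1a to Chaf1b shifted by 0.80 ± 0.32 and overlapped, since fl replicate 1 was at 0.68. The pairs were chosen for their difference, so neither the shifts nor the lack of overlap is a test. Ratios are not adjusted for transcript length, which went with change (below). The longest transcripts have 4751 nucleotides for Rfc1 and 1279 for Rfc4, and 5346 for Pola1 and 3128 for Prim1. For Chaf1a and Chaf1b they have 7698 and 2828. Gins3 (2519) is shorter than Gins2 (3900), and Mcm3 (3431) is close to Mcm5 (3381).

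**Figure D4:**
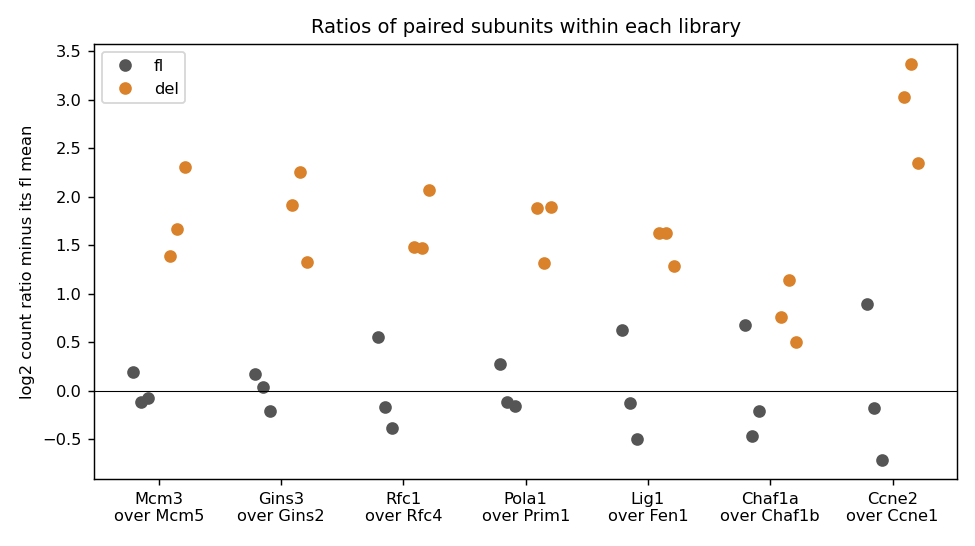
For 7 pairs of partner genes, points give the log2 ratio of their counts in each library minus the mean of the 3 fl libraries (grey fl, orange del). The del points lie above the fl points for 6 pairs, by 2.92 on average for Ccne2 over Ccne1, and overlap for Chaf1a over Chaf1b. The ratios are not adjusted for transcript length.

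Change went with transcript length, among the members as among all genes. The longest annotated transcripts had a median of 4123 nucleotides for the 10 members that rose, 2348 for the 12 that fell and 3128 for the 15 not called. Spearman's rho of fold change with length was 0.413 across the 37 members and 0.407 across 10096 tested genes. The points share the same 6 libraries. In each del library the fifth of genes with the longest transcripts stood 1.31 to 1.49 above the fifth with the shortest, on the log2 scale relative to the fl mean, against -0.02 to 0.01 in the fl libraries. After subtraction of the fitted trend of the fold changes on length and GC content, Mcm3 stood at 1.25, Gins3 at 1.12, Lig1 at 1.56, Ccne2 at 1.08, Ccne1 at -1.09, Gins2 at -0.95, Rfc4 at -0.82, Rfc5 at -0.98 and Rpa3 at -1.39. Pola1 went from 1.42 to 0.73 and Rfc1 from 0.72 to 0.24. Mcm10 (0.12), Chaf1a (0.02), Cdt1 (-0.09), Gmnn (-0.06) and Rpa2 (-0.06) came close to 0, Pcna stood at -0.23, and Pole turned from 0.55 to -0.12. Others moved away from 0: Rpa1 went from -0.40 to -0.96 and Rfc2 from -0.17 to -0.71. These adjusted values carry no test.

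**Figure D5:**
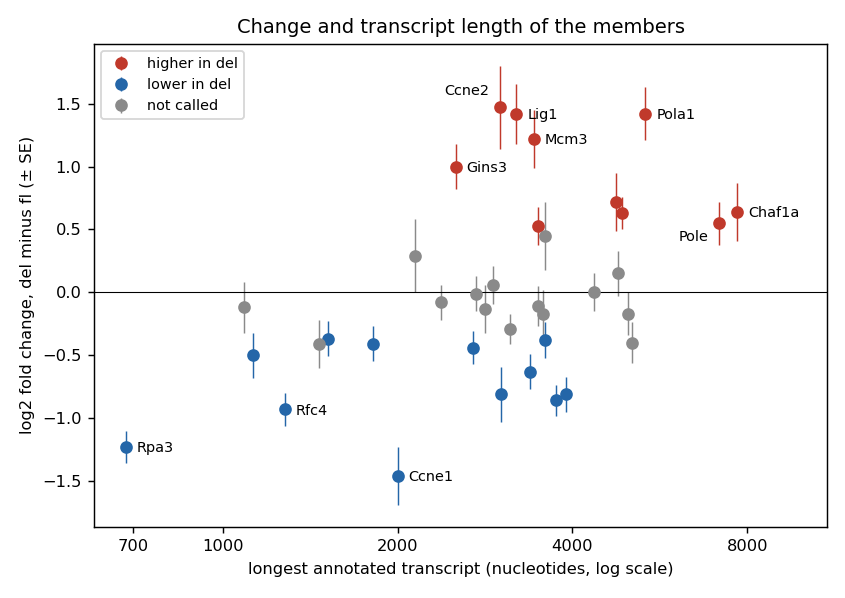
The log2 fold change (del minus fl, with its standard error) of the 37 members is plotted against the length of the longest annotated transcript on a log axis (red higher, blue lower, grey not called). Rpa3, the shortest, and Ccne1 are low, while Pole and Chaf1a, the longest, are among the 10 that rose.

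Sites for the microRNAs of the cluster were searched in the longest annotated 3' UTRs of the members. The mature sequences (RefSeq, GRCm38.p6, chromosome 14) are shown 5′ to 3′ with the seed, bases 2 to 8, in capitals, because it fixes the 7 letters searched. miR-17-5p and miR-20a-5p share a seed, as do miR-19a-3p and miR-19b-3p.
miR-17-5p: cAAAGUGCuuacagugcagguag
miR-20a-5p: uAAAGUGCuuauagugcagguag
miR-18a-5p: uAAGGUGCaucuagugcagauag
miR-19a-3p: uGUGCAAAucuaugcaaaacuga
miR-19b-3p: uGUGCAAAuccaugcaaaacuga
miR-92a-3p: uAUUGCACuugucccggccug
Of the 37 members, 8 (21.6%) held a match to at least 1 of the 4 seeds, against 35.7% of the 9746 tested genes with a 3' UTR. Matches to miR-17-5p and miR-20a-5p were in 4 members (10.8%, against 15.2%), to miR-18a-5p in 2 (5.41%, against 10.3%), and to the miR-19 pair and miR-92a-3p in 1 each (2.70%, against 14.1% and 8.04%). Of the 8 members, 4 rose, 2 fell, and Orc2 and Rpa1 did not pass. Among all genes tested 65.1% passed, 32.5% higher and 32.6% lower. Calls among all genes with a match were not counted. The 6 that passed are shown with the match in capitals and 30 bases in all.
Mcm3, chr1:20803154-20803183 (- strand): cccacccccagGCACTTTagtccaggaagc
Chaf1a, chr17:56067779-56067808 (+ strand): catgataaagaGCACTTTgtcctacattcc
Rpa2, chr4:132778318-132778347 (+ strand): ctttcggaattGCACTTTccttcccttgtc
Pola1, chrX:93305149-93305178 (- strand): gatttagaaagTTTGCACttactaaataca
Ccne2, chr4:11203579-11203608 (+ strand): actcttgaatgGTGCAATttgtttttgaaa
Gins2, chr8:120579262-120579291 (- strand): acaaggctgaaGCACCTTtgacttttctct
Mcm3 (log2 fold change 1.22), Chaf1a (0.64) and Rpa2 (-0.41) hold the letters of miR-17-5p and miR-20a-5p, Pola1 (1.42) those of the miR-19 pair, Ccne2 (1.47) those of miR-92a-3p and Gins2 (-0.81) those of miR-18a-5p. Of the 10 members that rose 4 hold a match, and of the 12 that fell 2 do. Lig1, which rose by about as much as Pola1 and Ccne2, holds none. Its longest 3' UTR has 149 nucleotides, against 904 for Pola1 and 1681 for Ccne2. Whether matches go with change was not tested. The Gins2 match lies in a GENCODE 3' UTR that runs past the end of the RefSeq gene (chr8:120581266-120589075). A match is a description of the letters, and binding was not measured.

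Of the wider replication machinery, 59 genes outside the members, 18 rose, 17 fell and 24 did not pass (59.3% called, median 0.03), against 65.1% of all genes tested, 32.5% higher and 32.6% lower. Clspn, the claspin gene of the fork checkpoint, rose from 48.9 ± 12.2 to 284 ± 32.0 CPM (2.54 ± 0.21, adjusted p = 9.48e-06). Dnmt1, the maintenance DNA methyltransferase that UHRF1 brings to new DNA, rose by 2.03 ± 0.15 and Topbp1, an activator of both origins and the ATR checkpoint kinase, by 1.82 ± 0.33 on the log2 scale. Tonsl, which acts in repair of broken forks, rose 4.15-fold. Polh, a translesion polymerase gene, was low, at 3.60 ± 3.69 and 18.2 ± 7.64 CPM, and its rise (2.26 ± 0.61, adjusted p = 0.00948) was not called with no count filter (0.068). Rnaseh2c, a subunit of the nuclease that removes RNA bases from DNA, fell from 161 ± 10.8 to 33.6 ± 5.68 CPM (-2.27 ± 0.16, adjusted p = 4.59e-06). After subtraction of the length and GC trend, Clspn stood at 1.99, Dnmt1 at 1.41, Topbp1 at 1.24 and Rnaseh2c at -1.46. Tonsl stood at 1.89 and Polh at 2.24 there. These adjusted values carry no test.

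Of the members, 14 share exon bases with a gene annotated on the other strand and Rpa1 with a gene on its own strand. The sources used here do not give whether counting used the strand, so reads of such pairs may not have been told apart. Some pairs moved alike: Rfc4 and Eif4a2 both fell (Eif4a2 -0.68 ± 0.19), as did Rfc5 and Wsb2 (Wsb2 -1.41 ± 0.15), and Lig1 and Zswim9 both rose (Zswim9 1.48 ± 0.28). Others did not: Chaf1a rose while Ubxn6 fell (-0.89 ± 0.18), and Ccne2 rose while Ints8 fell (-0.38 ± 0.13). Orc2, Fen1, Rfc2 and Cdc45 were not called while Nif3l1 (-1.57), Tmem258 (-1.40), Lat2 (-1.08) and Ufd1 (-0.66) fell. Gins2 fell while Gse1 was not called (-0.22), and neither Orc6 nor Vps35 (0.19) was called.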

How the data were processed

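3' RNA-seq of 6 libraries, 3 per group, was taken from 1 table of raw read counts per gene deposited by the authors. The submitters' processing notes name STAR, HTSeq and mm10, and per the labels' protocols the libraries were oligo-dT primed and strand-specific. For versions, and for how counting treated strand and shared reads, the sources used here give nothing. Symbols came from the RefSeq table of GRCm38.p6, which matched 23969 of 24052 gene numbers. 833 rows carry RefSeq accessions.

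edgeR 4.0.16 under R 4.3.3 was used with filterByExpr by group, TMM factors and robust glmQLFit and glmQLFTest, on a design with the group alone. P-values were adjusted by Benjamini-Hochberg over the 10260 genes that passed the filter, and 0.05 was the threshold. Standard errors came from the F statistic. CPM were computed from the deposited counts with TMM-scaled totals. The fit was also tested on simulated data with few genes changed, where most of the smallest changes were missed and the share of false calls was above the threshold. Alternatives were upper-quartile factors, DESeq2 1.42.0, other count filters, binomial thinning to the lowest total, each library left out, a replicate block, and removal of a loess trend on transcript length and GC content.

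The members and lists were chosen with earlier results of these data known. Named genes are all 37 members and, from each other list, up to 6 genes with the largest absolute change past the threshold. Values in every library are given for members changed at least 2-fold and, in each role, for the member with the smallest adjusted p. Of promoters, the rule names those of the largest rise and fall. Ccne2 has no entry in the RefSeq promoter table used. Those of Mcm3 and Mcm5, the pairs of subunits compared, and Orc3 to Orc5, Mcm7, Gins4 and Pola2 were picked with their values in view. Transcripts and 3' UTRs are those of GENCODE M21. Sites were searched in the longest 3' UTR of at least 50 nucleotides.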

Additional observations from a re-analysis of the deposited data

How the results depend on the processing

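Of the 22 members called, 14 kept the call under all 12 alternative fits with a test, and of the 15 not called 11 stayed so. Lost calls were confined to Orc1, Gmnn, Pcna, Rfc1, Rpa2, Pole, Chaf1a and Uhrf1, and gained calls to Orc6, Gins1, Rpa1 and Prim1. With each library left out in turn, 8 to 9 members were higher and 9 to 11 lower. In libraries thinned to the lowest total, 10 were higher and 7 lower, as Orc1 (-0.60), Gmnn (-0.41), Pcna (-0.36), Rpa2 (-0.40) and Uhrf1 (-0.33) missed the threshold, while Mcm5 (-0.55) and Cdt1 (-0.45) kept their calls. The cause was not tested. Upper-quartile factors gave 8 and 15. DESeq2 and the filter at 10 CPM in 3 libraries gave 10 and 12. Removing the trend on length and GC content gives no counts because it has no test, and there Pole turned to -0.12. Same-numbered libraries did not deviate together (correlations 0.0825, -0.0386 and -0.02). This gives no sign that the numbers pair the samples, but with 3 libraries per group it cannot exclude pairing. With the replicate block 10 members were higher and 11 lower, with Pcna (adjusted p = 0.0802) and Uhrf1 (0.0715) lost and Rpa1 (0.0478) gained.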

Other observations

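Genes around the replication fork were also lower or mixed. Of 14 genes of deoxynucleotide supply, 10 fell and 3 rose (92.9% called, against 65.1% of all genes tested, median log2 fold change -0.68). Dctpp1, which encodes a nucleotide pyrophosphatase, fell from 159 ± 4.13 to 55.8 ± 4.87 CPM (-1.51 ± 0.13), Nme2 stood at -1.28 ± 0.14, Dtymk, the thymidylate kinase gene, at -1.01 ± 0.13 and Nme1 at -0.99 ± 0.13. Rrm1, the large subunit of ribonucleotide reductase, rose from 229 ± 71.1 to 574 ± 147 CPM (1.33 ± 0.26), and Dck, which salvages deoxynucleosides, rose by 1.34 ± 0.13. Subtraction of the length and GC trend, which carries no test, took Dctpp1 to -0.59, Rrm1 to 0.67 and Dck to 1.22. Nme2 stood at -0.49 there, Dtymk at -0.61 and Nme1 at -0.97. The counts and the median of the deoxynucleotide list are given without that subtraction.

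Of 30 genes of mitosis and the spindle, 8 rose and 14 fell (73.3% called, against 65.1% of all genes tested, median -0.24). Mki67, the proliferation marker, rose from 169 ± 36.5 to 727 ± 127 CPM (2.10 ± 0.20), and the kinetochore genes Cenpf (1.72 ± 0.30) and Cenpe (1.51 ± 0.24) rose too. Cenpa, the centromeric histone gene, fell from 475 ± 9.94 to 141 ± 3.41 CPM (-1.76 ± 0.13), as did Ccnb1, the cyclin B1 gene (-1.57 ± 0.14), and Cdc20 (-1.57 ± 0.15). The values of these mitosis genes are given without subtraction of the length and GC trend.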
